A study of Homo sapiens with 9 samples.

Results

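The genes described here are 10 markers by which astrocytes are recognised, read in the human glioma cell line U251: GFAP, VIM, NES, SLC1A3, SLC1A2, CLU, S100B, GLUL, CRYAB and AQP4. They were chosen by name, with earlier results of these data known. All 20 probe sets that the platform annotation assigns to these symbols alone were used, of 22215 tested on the chip, which cover 11963 genes. Of the 10 genes, 5 had 1 probe set and 5 had several. The first group of 3 cultures received Oligofectamine, a lipid transfection reagent, with a short interfering RNA (siRNA) that targets the zinc finger factor WT1. The second received Oligofectamine with a non-targeting (scrambled) siRNA, and the third Oligofectamine alone. Each siRNA was used at 100 nM, so the reagent was common to all 9 cultures. All cultures are of 1 cell line, and the replicate numbers 1 to 3 recur in each group.

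Astrocytes take up the transmitter glutamate with the transporters SLC1A3 and SLC1A2 and turn it into glutamine with the enzyme GLUL. Their skeleton of intermediate filaments is built from GFAP and VIM, with NES in immature and reactive cells and in many gliomas. CLU and CRYAB are chaperones, S100B binds calcium, and AQP4 carries water at the endfeet of astrocytes around blood vessels. VIM, NES, CLU and GLUL are also made by many other cell types.

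Values are log2 expression after RMA, and array medians lay between 6.45 and 6.53. Differences are on the log2 scale, paired by replicate number, with the standard error (SE) of the limma fit and n = 3 per group. A change is an adjusted p under 0.05 over the whole chip. The number of arrays limits the precision. The labels describe wells plated in triplicate and do not say that these were separate experiments. The p-values of this paired fit measure only the spread between these wells that is left once differences between replicate numbers are removed. That spread may be technical. WT1 itself, at its brighter probe set, read 4.76, 5.09 and 4.82 with its siRNA, 5.59, 5.89 and 5.41 with the scrambled siRNA, and 6.05, 6.58 and 5.89 with reagent alone. The WT1 siRNA lowered it to 60.0% of the scrambled level (adjusted p = 0.00336) and to 41.0% of the reagent level (adjusted p = 0.000619). The scrambled siRNA stood at 68.4% of reagent, which passed too (adjusted p = 0.0164), and the other WT1 probe set passed in no comparison. With either siRNA the brighter probe set lay below the array median on each array. At so dim a signal these percentages may not measure the size of the fall.

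The signal of the marker set in the glioma cells ran from bright to dim. Of the 20 probe sets, 9 were above the array median on every array, 10 were below it on every array and 1, of GFAP, lay on both sides. As many probe sets of an array lie above its median as below it, so such a split is not particular to the markers. VIM ranged from the 99.87 to the 99.96 percentile of its array. NES ranged from the 78.3 to the 89.4 percentile, SLC1A3 from 67.4 to 81.8 and the brighter CLU probe set from 74.9 to 86.6. At the other end, the 4 probe sets of AQP4 lay between the 0.239 and the 15.5 percentile, S100B between 12.8 and 36.5, and CRYAB between 39.3 and 48.1. The deposited table holds no detection calls, so a dim probe set cannot be called absent. Taken at the brightest probe set of each gene, 6 of the 10 marker genes were above the array median and 3 below it on every array. Choosing the brightest probe set raises a gene's place, and the share over all genes is not given here. Of 26 further astrocyte genes taken the same way, 13 were above it and 11 below it on every array. Among markers of other cell types, 9 of 10 measured microglial genes, 8 of 10 oligodendrocyte genes and 5 of 7 endothelial genes were below the array median on every array. Of 10 neuronal genes 4 were above it and 4 below it on every array, and of 12 mesenchymal genes 7 were above it and 3 below it.

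**Figure D1:**
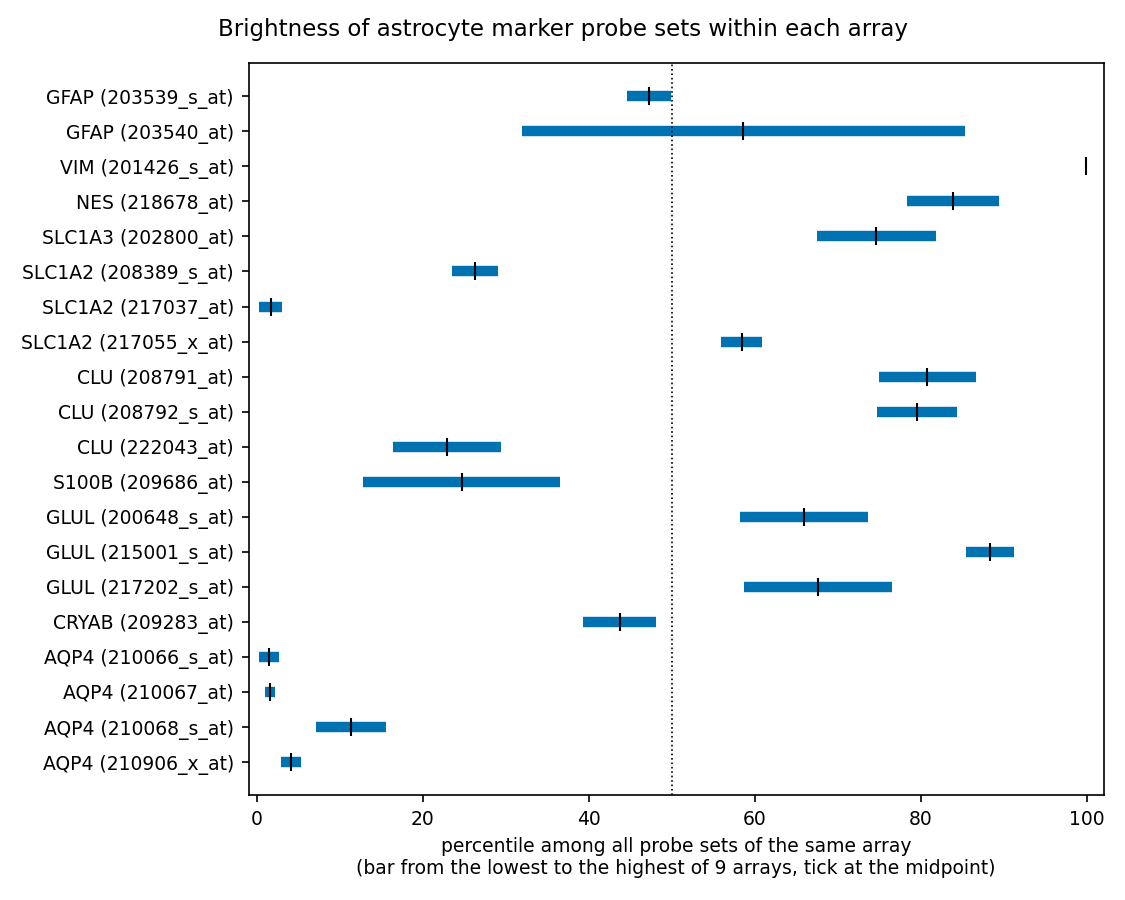
Percentile of each astrocyte marker probe set among the 22215 probe sets of the same array, with the bar running from the lowest to the highest of 9 arrays. VIM stood at the top of the chip, AQP4 at the bottom, and a GFAP probe set (203540_at) spanned 31.9 to 85.3.

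Of the 7 probe sets of the glutamate genes SLC1A3, SLC1A2 and GLUL, 3 changed between the siRNAs, where 3.27% changed over the chip. These were the SLC1A3 probe set and 2 of GLUL. At the brightest probe set of each of these genes, only SLC1A3 changed. The genes were chosen with earlier results of these data known, so this count cannot show an excess over the chip. SLC1A3, the glutamate transporter also called GLAST, read 7.90, 8.22 and 7.78 with the WT1 siRNA, 8.64, 8.92 and 8.46 with the scrambled siRNA, and 8.10, 8.42 and 8.04 with reagent alone (numbers 1, 2 and 3). In each number the scrambled culture was the highest and the WT1 siRNA culture the lowest. The WT1 siRNA values did not overlap with the scrambled values, as for 6.67% of all probe sets, and overlapped with those of reagent alone. SLC1A3 fell with the WT1 siRNA to 61.4% of the scrambled level (−0.70, SE 0.0563, adjusted p = 0.000859), with nearly the same size in each number (−0.74, −0.70 and −0.68).

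Against reagent alone, the SLC1A3 difference with the WT1 siRNA was −0.22 (SE 0.0563, 95% interval −0.34 to −0.09), lower in 3 of 3 numbers, and did not pass (adjusted p = 0.108). The scrambled siRNA stood at 140% of the reagent level and this rise passed (0.49, SE 0.0563, adjusted p = 0.00641). The scrambled values did not overlap with the reagent values, as for 5.26% of all probe sets. The 3 comparisons share their arrays, so these 3 differences are not independent of each other. Without the arrays of number 2 neither call held (adjusted p = 0.0596 against scrambled siRNA, and 0.285 for scrambled against reagent), although the differences were −0.71 and 0.48. The call of scrambled against reagent was also lost without number 1 (0.057), without scrambled replicate 2 (0.0799) and without reagent replicate 2 (0.0889).

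GLUL, glutamine synthetase, rose between the siRNAs at 2 of its 3 probe sets. The probe set 217202_s_at read 8.33, 7.41 and 7.99 with the WT1 siRNA, 7.89, 7.10 and 7.40 with the scrambled siRNA, and 8.02, 7.32 and 7.76 with reagent alone. Within each number the WT1 siRNA culture was the highest and the scrambled culture the lowest, while the groups overlapped because numbers differed more than treatments. It rose to 136% of the scrambled level (0.45, SE 0.0708, adjusted p = 0.0123). The probe set 200648_s_at read 8.11, 7.48 and 7.63 with the WT1 siRNA, 7.62, 7.07 and 7.47 with the scrambled siRNA, and 7.83, 7.32 and 7.75 with reagent alone. It rose to 128% of the scrambled level (0.35, SE 0.0794, adjusted p = 0.0451).

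The brightest GLUL probe set, 215001_s_at, read 9.71, 9.65 and 9.78 with the WT1 siRNA, 9.19, 9.35 and 9.78 with the scrambled siRNA, and 9.32, 9.64 and 9.98 with reagent alone. Its difference from scrambled siRNA was positive in 3 of 3 numbers but close to 0 in number 3, and did not pass (0.28, SE 0.103, adjusted p = 0.208). In probe set names ending in _s_at the probes can match several transcripts, so signals of related sequences cannot be told apart there. None of the 3 passed against reagent (0.07 to 0.21, adjusted p = 0.198 to 0.818), nor did scrambled siRNA against reagent (−0.25 to −0.21, adjusted p = 0.189 to 0.467). The GLUL calls lay close to the threshold: under 19 alternatives 217202_s_at passed in 11 and 200648_s_at in 6. The second was lost without number 1 (0.177) or 2 (0.383), without WT1 siRNA replicate 1 or 2, any scrambled replicate, or reagent replicate 1 or 2 (0.052 to 0.222). The first was lost without scrambled replicate 1 (0.0501), 2 (0.0662) or 3 (0.0652), and without number 1 (0.051), 2 (0.14) or 3 (0.0714).

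SLC1A2, the main glutamate transporter of mature astrocytes, showed no change at any of its 3 probe sets. The brightest, 217055_x_at, read 7.03, 7.03 and 7.31 with the WT1 siRNA, 7.08, 7.08 and 6.96 with the scrambled siRNA, and 7.17, 7.02 and 6.91 with reagent alone. All its groups overlapped, and the difference against scrambled siRNA was 0.08 (95% interval −0.13 to 0.30). Names ending in _x_at mark probe sets whose probes may also bind unrelated transcripts. The dimmest, 217037_at, lay between the 0.306 and the 3.06 percentile of its array. Over the 3 probe sets and 3 comparisons the differences ran from −0.10 to 0.09, with adjusted p-values of 0.606 and more.

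The DNA upstream of SLC1A3 and GLUL is shown because these genes moved in opposite directions between the siRNAs. Of the 10 genes, 5 were found in the RefSeq promoter table (GRCh38.p14), with 10 start sites in all. The windows below are the 250 bases before a start site, 5′ to 3′ on the gene's strand. The first SLC1A3 window is chr5:36596338-36596587 on the plus strand, before the start farthest upstream. The second is chr5:36606356-36606605 on the plus strand, before a start inside the gene. The GLUL window is chr1:182391791-182392040 on the minus strand. Capitals mark matches, on either strand, to the GC box GGGCGG and to CCAAT.
SLC1A3 farthest upstream start: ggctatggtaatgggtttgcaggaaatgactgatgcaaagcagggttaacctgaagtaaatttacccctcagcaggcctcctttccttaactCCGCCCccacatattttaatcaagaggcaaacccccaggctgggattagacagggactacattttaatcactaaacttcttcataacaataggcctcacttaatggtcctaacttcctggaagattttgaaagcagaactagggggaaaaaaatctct
SLC1A3 inner start: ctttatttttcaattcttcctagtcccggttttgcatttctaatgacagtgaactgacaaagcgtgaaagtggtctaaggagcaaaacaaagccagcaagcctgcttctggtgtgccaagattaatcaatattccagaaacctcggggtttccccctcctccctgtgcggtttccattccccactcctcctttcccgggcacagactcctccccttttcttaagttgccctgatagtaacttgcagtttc
GLUL upstream start: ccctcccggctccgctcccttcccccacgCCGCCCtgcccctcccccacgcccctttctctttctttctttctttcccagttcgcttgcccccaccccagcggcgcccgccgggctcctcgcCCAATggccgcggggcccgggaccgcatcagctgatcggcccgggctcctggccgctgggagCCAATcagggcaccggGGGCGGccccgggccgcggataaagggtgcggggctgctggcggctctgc

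The windows differed in base composition. G and C made up 43.2% and 47.2% of the SLC1A3 windows and 74.8% of the GLUL window. The first SLC1A3 window held 1 GC box and the second none, and the GLUL window held 2 GC boxes and 2 CCAAT matches. The table has 1 more window for each gene, not printed: that of SLC1A3 held 1 CCAAT match and 0 GC boxes, and that of GLUL 2 GC boxes and 0 CCAAT matches. Of all 35116 promoter windows of this length in the table, 42.6% held a GC box and 32% held CCAAT. The letters GCGNGGGCG, bound by WT1 and by the related EGR factors, and GCGTGGGAG, another WT1 motif, were found in 0 of the 10 windows of the marker genes, against 8.41% and 0.592% of all windows. GCGNGGGCG can overlap a GC box. These letters say nothing about binding farther away, and which start site U251 cells use was not measured.

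CLU, a secreted chaperone also known as apolipoprotein J, followed the order of SLC1A3 at its brighter probe sets. Its probe set 208791_at read 8.45, 8.34 and 9.02 with the WT1 siRNA, 8.93, 8.92 and 9.39 with the scrambled siRNA, and 8.58, 8.54 and 9.16 with reagent alone. In every number the scrambled culture was the highest and the WT1 siRNA culture the lowest, and the groups overlapped because number 3 was higher throughout. CLU fell to 71.9% of the scrambled level (−0.48, SE 0.0615, adjusted p = 0.00591). The probe set 208792_s_at read 8.23, 8.33 and 8.84 with the WT1 siRNA, 8.75, 8.99 and 9.15 with the scrambled siRNA, and 8.29, 8.52 and 8.98 with reagent alone, and fell to 70.8% of the scrambled level (−0.50, SE 0.077, adjusted p = 0.0109).

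Between scrambled siRNA and reagent, CLU rose at 208791_at to 125% (0.32, SE 0.0615, adjusted p = 0.0474). The other bright probe set stood at 129% and did not pass (0.37, adjusted p = 0.0623). With the WT1 siRNA the bright probe sets stood at 89.6% and 91.3% of reagent, lower in 3 of 3 numbers each, and did not pass (adjusted p = 0.265 and 0.471). The dim probe set 222043_at read 4.67 to 5.22 over the 9 arrays and passed in no comparison. In number 2 it was lowest with the scrambled siRNA (4.96, against 5.05 with the WT1 siRNA and 5.22 with reagent alone). The CLU fall at 208791_at was lost without number 2 (adjusted p = 0.172) and without scrambled replicate 2 (0.0596). The one at 208792_s_at was also lost without number 1 (0.0576), number 2 (0.218), scrambled replicate 1 (0.0655) or 2 (0.0912), or WT1 siRNA replicate 2 (0.0676). The rise of scrambled siRNA over reagent passed under 7 of 19 alternatives and was lost without any one number, any scrambled or reagent replicate, or WT1 siRNA replicate 2 (0.0653 to 0.531).

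**Figure D2:**
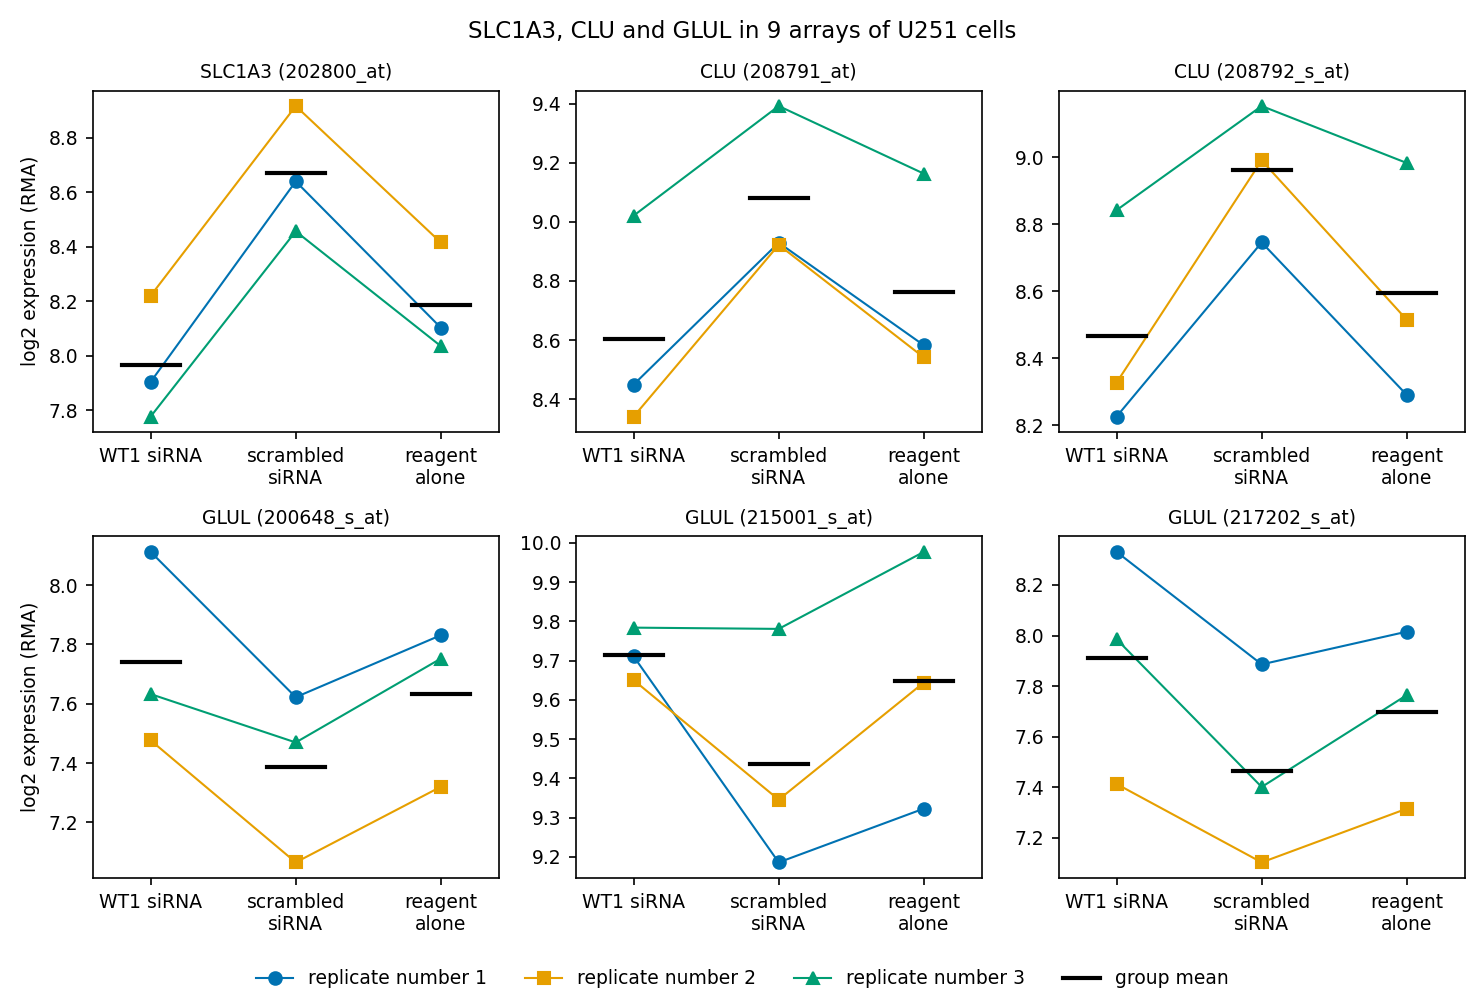
Log2 expression of SLC1A3, CLU and GLUL probe sets in each of 9 arrays by treatment, with points of a replicate number joined and bars at group means, on an axis of its own per probe set. In each number SLC1A3 and both CLU probe sets drawn were highest with the scrambled siRNA and lowest with the WT1 siRNA. The dim CLU probe set 222043_at, with a mean under 6, is not drawn and did not keep this order in number 2.

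CRYAB, alpha B crystallin, is a small heat shock protein that accumulates in stressed astrocytes. It read 6.36, 5.83 and 5.94 with the WT1 siRNA, 6.26, 5.78 and 5.94 with the scrambled siRNA, and 6.26, 5.96 and 5.99 with reagent alone. The groups overlapped throughout, and number 1 was the highest in each. Differences ran from −0.08 to 0.05, the widest 95% interval bounds being −0.22 and 0.20, and none passed.

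GFAP, the filament protein that defines mature astrocytes, gave different pictures at its 2 probe sets. The probe set 203540_at read 6.96, 5.36 and 8.13 with the WT1 siRNA, 5.84, 5.54 and 7.99 with the scrambled siRNA, and 6.79, 6.68 and 9.25 with reagent alone. With the scrambled siRNA it was lower than with reagent in 3 of 3 numbers (−0.95, −1.13 and −1.26), and with the WT1 siRNA it was lower in numbers 2 and 3 (−1.32 and −1.13) but not in number 1 (0.16). The means stood at 59.0% of reagent with the WT1 siRNA (−0.76, SE 0.237, adjusted p = 0.168) and at 46.2% with the scrambled siRNA (−1.11, adjusted p = 0.0647), and neither passed. Between the siRNAs the difference was 0.35 (95% interval −0.18 to 0.89).

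Whether the GFAP differences at 203540_at passed depended on single arrays. Without WT1 siRNA replicate 1 both differences against reagent passed, at −1.18 with the WT1 siRNA (adjusted p = 0.00579) and −1.11 with the scrambled siRNA (adjusted p = 0.00109). That array is in neither group of the scrambled against reagent comparison. The difference there stayed at −1.11, while its SE, from a spread shared by all groups, went from 0.237 to 0.0807. The call of scrambled against reagent was also made without number 1 (0.00807), without WT1 siRNA replicate 2 (0.0483) and with those groups fitted alone (0.00134), and the call of the WT1 siRNA without number 1 (0.0124). The second probe set, 203539_s_at, read 6.08 to 6.51 on all arrays. It had differences of 0.15 with the WT1 siRNA and −0.01 with the scrambled siRNA against reagent, so the decrease at 203540_at was not seen there. Nor did it follow the larger differences between numbers at 203540_at (number means 6.43, 6.15 and 6.25, against 6.53, 5.86 and 8.46). Whether it could show such a decrease is therefore not known.

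VIM, the filament protein shared by astrocytes and mesenchymal cells, read 13.69, 13.71 and 13.71 with the WT1 siRNA, 13.58, 13.67 and 13.61 with the scrambled siRNA, and 13.57, 13.71 and 13.70 with reagent alone. The WT1 siRNA and scrambled values did not overlap, but the difference was small and did not pass (0.08, 95% interval −0.05 to 0.21). VIM lay near the top of the scale, where the highest value of any probe set was 14.09. NES, nestin, read 9.33, 8.70 and 9.67 with the WT1 siRNA, 9.30, 8.73 and 9.74 with the scrambled siRNA, and 8.96, 8.62 and 9.60 with reagent alone. Both siRNA groups were above reagent in 3 of 3 numbers (0.17 and 0.20, SE 0.0706), which did not pass (adjusted p = 0.284 and 0.288), and the siRNA groups differed by −0.03 (95% interval −0.18 to 0.13).

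S100B read 5.69, 4.77 and 4.47 with the WT1 siRNA, 4.83, 4.54 and 4.63 with the scrambled siRNA, and 5.16, 4.73 and 4.65 with reagent alone. The array of WT1 siRNA number 1 was the highest, the groups overlapped, and no difference passed (−0.18 to 0.31, SE 0.149). The 4 AQP4 probe sets read between 3.59 and 4.58 on all arrays and had differences from −0.07 to 0.07, none of which passed.

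**Figure D3:**
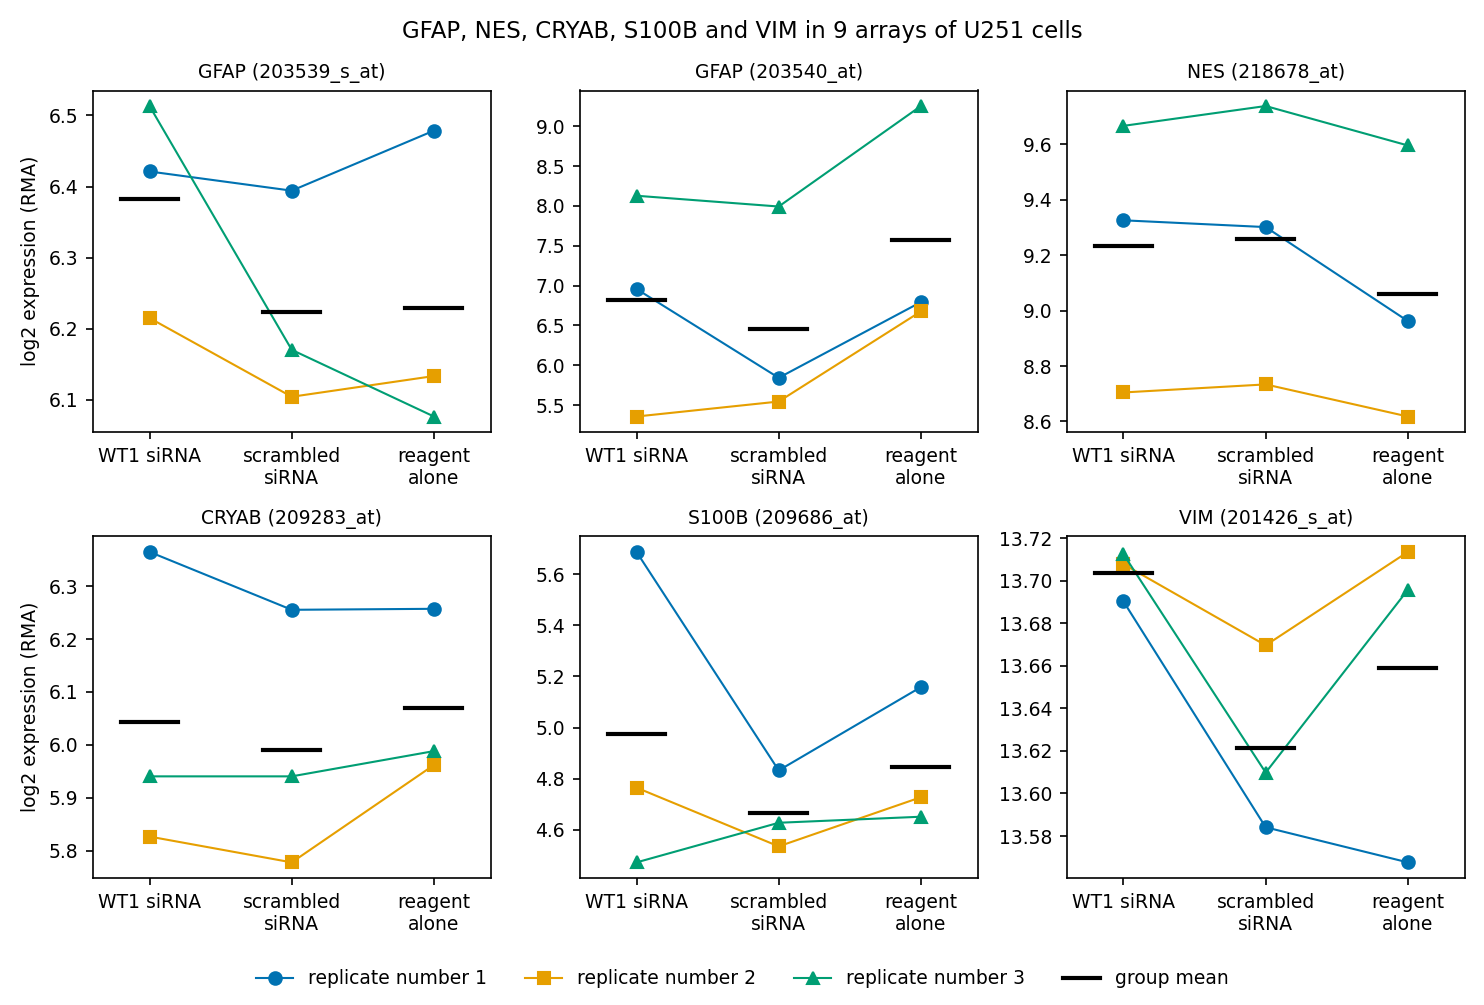
Log2 expression of GFAP, NES, CRYAB, S100B and VIM in each of 9 arrays by treatment, with points of a replicate number joined and bars at group means, on an axis of its own per probe set. GFAP 203540_at spanned 5.36 to 9.25, and VIM 13.57 to 13.71.

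Counted over the set, 5 of the 20 probe sets changed between the WT1 and scrambled siRNAs: 3 lower (SLC1A3 and 2 of CLU) and 2 higher (GLUL). The genes were chosen with earlier results of these data known, so the counts given here cannot show an excess over the chip. Over the whole chip 3.27% of probe sets changed, 1.94% lower and 1.33% higher. The 5 calls came from 3 genes. At the brightest probe set of each gene, 2 of the 10 genes were lower (SLC1A3 and CLU) and 0 higher. Over all genes taken so, 3.7% changed. At an unadjusted p under 0.05 there were 6 of the 20, against 16.4%, and 8 had the same sign in 3 of 3 numbers, against 35.1%. The groups did not overlap for 2, SLC1A3 and VIM, against 6.67% over the chip. The median difference of the 20 was 0.04, against 0.0040 over the chip, and the median size was 0.10 against 0.07. Against reagent the WT1 siRNA changed 0 of the 20 in limma, while 1.25% changed over the chip, and 5 of the 20 had an unadjusted p under 0.05, against 15.1%. The groups did not overlap for 0 of the 20 there, against 5.5% over the chip, and 6 had the same sign in each number, against 33.4%. Scrambled siRNA against reagent changed 2 of the 20, both higher, where 1.09% changed over the chip and 0.554% were higher. Here 7 of the 20 had an unadjusted p under 0.05, against 11.9%, and 10 had the same sign in each number, against 37%. Without the replicate block 0 of the 20 passed in any comparison in limma, and 0.018%, 0% and 0.0045% of the chip passed between the siRNAs, for WT1 siRNA against reagent and for scrambled siRNA against reagent. SLC1A3 between the siRNAs then had an adjusted p of 0.512, and every other SLC1A3, CLU and GLUL result had 1.00. At an unadjusted p under 0.05, 2 passed there between the siRNAs (3.71% over the chip), 0 between WT1 siRNA and reagent (2.77%) and 1 between scrambled siRNA and reagent (2.17%).

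**Figure D4:**
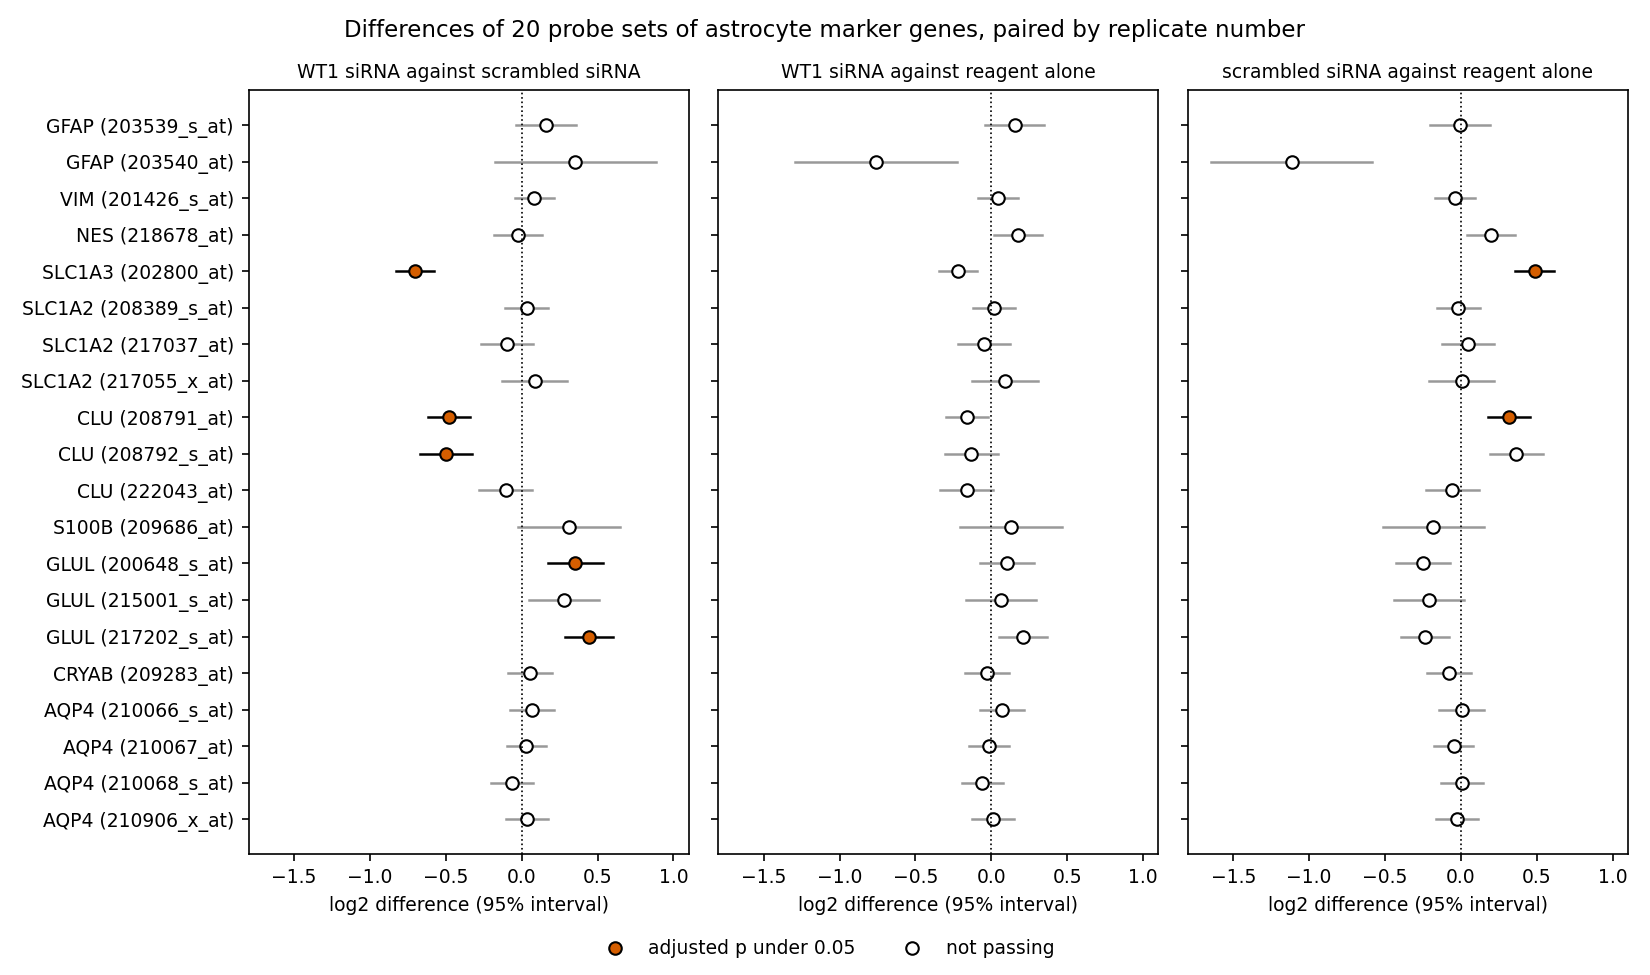
Paired log2 differences of the 20 probe sets in 3 comparisons, with 95% intervals from the limma fit, and filled points for an adjusted p under 0.05. SLC1A3 and CLU were lower and GLUL higher with the WT1 siRNA than with the scrambled siRNA, 0 points are filled for WT1 siRNA against reagent alone, and 2 (SLC1A3 and CLU) for scrambled siRNA against reagent alone.

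Like the chip as a whole, the marker genes differed more between replicate numbers than between treatments. The median share of a marker probe set's sum of squares was 54.2% between numbers and 21.9% between treatments. An F test of the numbers, with treatment held fixed, passed for 11 of the 20 probe sets, where 49.7% passed over the chip. GFAP 203540_at had number means of 6.53, 5.86 and 8.46 for numbers 1, 2 and 3 (adjusted p = 8.05e-05), and NES had 9.20, 8.69 and 9.67 (3.14e-05). Both were highest in number 3 and lowest in number 2. CRYAB had 6.29, 5.86 and 5.96 (0.00112) and S100B 5.23, 4.68 and 4.58 (0.0111), highest in number 1. The GLUL probe sets disagreed on this order. Number 1 was the highest at 217202_s_at (8.08, 7.28 and 7.72) and 200648_s_at (7.85, 7.29 and 7.62) and the lowest at 215001_s_at (9.41, 9.55 and 9.85).

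Between numbers lay 93.5% of the sum of squares of NES, 91.9% of CRYAB and 80.2% of GFAP 203540_at. SLC1A3 had the larger share between treatments, with 72.6%, and 27.0% between numbers. SLC1A2 217037_at and 217055_x_at and AQP4 210067_at also had the larger share between treatments, though they passed in no comparison. Over all probe sets of the chip the median shares were 59.1% between numbers and 13.4% between treatments. Probes at the ends of control transcripts also differed by number. The 3' minus 5' difference of beta-actin was 0.0507 to 0.0887 in number 1, 0.554 to 0.677 in number 2 and 0.260 to 0.505 in number 3. In number 3 it was 0.260 with the WT1 siRNA, 0.460 with the scrambled siRNA and 0.505 with reagent alone. The WT1 siRNA array was also the lowest in number 2, but not in number 1. For GAPDH it was −0.0249 to −0.00564, 0.157 to 0.184 and 0.0953 to 0.106 in numbers 1, 2 and 3. The part of these differences in the marker differences between numbers or treatments was not tested.

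**Figure D5:**
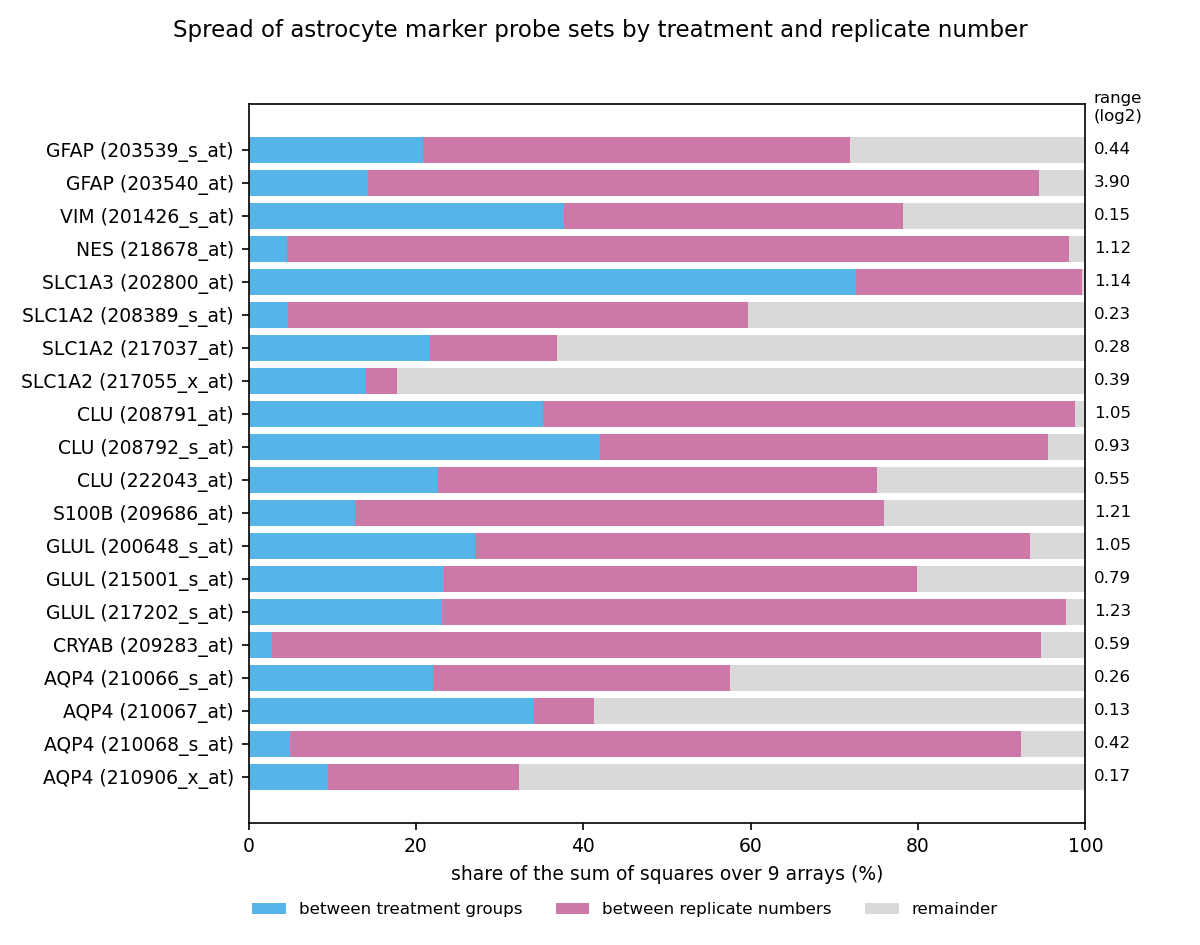
Share of each probe set's sum of squares over 9 arrays that lay between treatment groups, between replicate numbers, and in the remainder, with the range over arrays at the right in log2 units. SLC1A3 had 72.6% between treatments, and NES and CRYAB over 90% between numbers.

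With the mean of each number subtracted, the pattern of SLC1A3 over the 9 arrays was closest to those of SORBS2 (Pearson r = 0.998), GPNMB (0.986) and CLU (0.986), out of 11962 genes. CLU 208791_at was closest to MTMR9 (0.995), SORBS2 (0.990) and MYL12B (0.989). CLU 208792_s_at was closest to OLFML2A (0.987), MTMR9 (0.985) and ATP5ME (0.978). GLUL 217202_s_at was closest to CTDSP2 (0.984), SOX2 (0.982) and POLR3D (0.978), and GLUL 200648_s_at to CCSER2 (0.984), ELOVL6 (0.983) and KLF7 (0.979). These values describe 9 arrays that share treatments and numbers, among many genes compared.

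Related genes were counted in wider lists. Each gene is taken at its brightest probe set, and 3.70%, 1.40% and 1.21% of all 11963 genes changed between the siRNAs, for WT1 siRNA against reagent, and for scrambled siRNA against reagent. Without the replicate block none of the genes named below from these lists passed in limma (adjusted p = 0.972 and more). How their calls held under the other alternatives was not tested. Of 26 further astrocyte genes measured, SERPINA3, a secreted protease inhibitor of reactive astrocytes, rose between the siRNAs (0.51, SE 0.109, adjusted p = 0.0381), and 0 fell. Tenascin C (TNC), a matrix protein, rose with scrambled siRNA against reagent (0.31, adjusted p = 0.0478). ID4 (−0.51, adjusted p = 0.0565) and ID3 (0.27, adjusted p = 0.0701), inhibitors of helix-loop-helix factors, did not pass between the siRNAs. The median of these 26 genes was 0.02 between the siRNAs.

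Of 16 measured genes of glutamate and glutamine use, PPAT, which spends glutamine in purine synthesis, rose between the siRNAs (0.27, SE 0.0614, adjusted p = 0.0456), and the others did not pass in any comparison. Among those, the cystine and glutamate exchanger SLC7A11 had −0.35 for scrambled siRNA against reagent (adjusted p = 0.141), and the transporters SLC1A4 and SLC1A1 had −0.25 and 0.15. Of 15 other intermediate filament and linker genes, the keratin KRT18 fell between the siRNAs (−0.44, SE 0.0892, adjusted p = 0.0319), and 0 passed against reagent. Its partner KRT8 (−0.36) and KRT7 (−0.29) had adjusted p-values of 0.0847 and 0.0668, and SYNM, which joins vimentin filaments, had −0.31 for WT1 siRNA against reagent (0.0823).

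Signals known to switch GFAP on were measured at 23 genes. NFIB, a factor of the nuclear factor I family that acts in astrocyte formation, read a mean of 9.25 with the WT1 siRNA, 8.72 with the scrambled siRNA and 9.62 with reagent alone. It was lower with scrambled siRNA than with reagent (−0.91, SE 0.0781, adjusted p = 0.00245) and higher with the WT1 siRNA than with the scrambled one (0.53, adjusted p = 0.00903), and its difference for WT1 siRNA against reagent did not pass (−0.37, adjusted p = 0.0566). SMAD5, a carrier of BMP signals, rose between the siRNAs (0.36, adjusted p = 0.0448). SMAD4 and IL6ST, the shared receptor chain of the interleukin 6 family, passed in no comparison. Among 13 genes of aquaporins and the endfoot complex, utrophin (UTRN) rose with the WT1 siRNA (0.38, SE 0.0592, adjusted p = 0.0207) and with the scrambled siRNA (0.49, adjusted p = 0.00779) against reagent. Of 11 small heat shock and related genes 0 changed in limma; HSPB1 had −0.36 for scrambled siRNA against reagent (adjusted p = 0.108).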

How the data were processed

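Transcript levels were measured on 9 arrays from U251 cells in 3 groups of 3 wells. The authors deposited log2 values for each probe set after RMA (robust multi-array average), per the submitters' processing notes. Which RMA program they ran, and with which chip definition, was not given in the sources used here. After leaving out 62 control probe sets, 22215 remained. Gene symbols came from the platform annotation and were updated by gene ID, and 19064 probe sets had 1 symbol, 1043 several and 2108 none.

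The log2 values were fitted as deposited with limma 3.58.1 in R 4.3.3, with 1 mean per group and the replicate number as a fixed block, over all 9 arrays. Tests were two-sided. The Benjamini-Hochberg adjustment ran over all 22215 probe sets of a comparison. A change means an adjusted p under 0.05. The block was used because the comparisons were set as paired by replicate number. Same-numbered arrays of different groups also deviated together from their group means (correlations of 0.647 to 0.849 in 9 pairs, against −0.611 to −0.031 between numbers). Deviations within a group sum to 0, so positive correlations within numbers make those between numbers negative on average. The negative values are therefore no separate evidence. The members, the gene lists and the use of the block were chosen with earlier results of these data known. Every probe set of the 10 members is reported. Other genes were represented by their brightest probe set, and those with the smallest p-values of each list, up to 4, were named together with any other gene called. The fit was tested on simulated data. Alternatives were a fit without the block, a random block, leaving out arrays or numbers, fitting only the groups compared, centring, repeated quantile normalisation, leaving out probe sets with a mean under 6, and another variance model. Figures were drawn with matplotlib 3.10.9.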

Additional observations from a re-analysis of the deposited data

How the results depend on the processing

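The reported tests have the replicate number as a block, because the comparisons were set as paired and same-numbered arrays deviated together. Without the block limma called 4 probe sets over the chip between the siRNAs (reported count 726), 0 for WT1 siRNA against reagent (277) and 1 for scrambled siRNA against reagent (242). Of the 20 marker probe sets it then called 0, 0 and 0, against 5, 0 and 2 with the block. With the number as a random block the chip counts were 356, 118 and 88, and the marker counts 3 between the siRNAs and 1 for scrambled siRNA against reagent. With only the groups compared in the fit, the chip counts were 390, 3 and 535, and 4 marker probe sets passed for scrambled siRNA against reagent. A trended and robust variance gave chip counts of 1091, 595 and 485. Leaving out an array or a replicate number gave 2 to 706, 0 to 465 and 3 to 387 over the chip. For the marker probe sets it gave 0 to 6, 0 to 1 and 0 to 3, and 8 to 12 for the test of the numbers (reported count 11). With fewer arrays the fits have fewer degrees of freedom. Other counts, after centring, repeated quantile normalisation or without dim probe sets, stayed within 1.5 times the main ones. No called difference of a marker changed sign under these alternatives. SLC1A3 kept a difference of −0.73 to −0.68 between the siRNAs and passed in 17 of 19 alternatives.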

Other observations

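Among markers of other cell types, the mesenchymal list held the most calls: 3 of its 12 genes between the siRNAs, where 3.70% of all genes changed, and 3 of 12 for scrambled siRNA against reagent, where 1.21% changed. The lists were chosen with earlier results of these data known, so these counts cannot show an excess. Both comparisons use the same scrambled arrays, so the counts are not independent of each other. COL1A2, a chain of type I collagen, rose between the WT1 and scrambled siRNAs (0.56, SE 0.0721, adjusted p = 0.0058), while COL5A1, a chain of type V collagen (−0.52, adjusted p = 0.00903), and S100A4, a calcium-binding protein of motile cells (−0.30, adjusted p = 0.0447), fell. For scrambled siRNA against reagent COL1A2 fell (−0.55, adjusted p = 0.0109) and COL5A1 (0.68, adjusted p = 0.00529) and the surface protein THY1 (0.39, adjusted p = 0.0312) rose. Without the replicate block none of these calls held in limma (adjusted p = 0.749 and more). Mean levels of the mesenchymal list lay at 7.92 to 8.15 with the WT1 siRNA, 7.91 to 8.17 with the scrambled siRNA and 7.89 to 8.01 with reagent alone. Of 10 neuronal genes, GAD1, which makes the transmitter GABA from glutamate, rose between the siRNAs (0.48, SE 0.092, adjusted p = 0.0265). Of 10 oligodendrocyte, 10 microglial and 7 endothelial genes, limma called 0 in any comparison. PDGFRA, with 0.47 between the siRNAs (adjusted p = 0.219), had the smallest p of the oligodendrocyte list.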
